A study of Papio anubis with 8 samples.

Results

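Ephrins, netrins, slits and their receptors are the classical cues by which growing axons and migrating cells find their way. Here their transcripts are described in RNA-seq libraries of hippocampus from olive baboon (Papio anubis) fetuses. The members were taken by gene symbol: the ephrins (EFNA, EFNB), the Eph receptors (EPHA, EPHB), the netrins (NTN), the netrin-G proteins (NTNG), the netrin receptors DCC and UNC5A to UNC5D, the slits (SLIT) and their ROBO receptors. The rule found 38 of the 37053 genes in the deposited table. Of the 38, 36 passed a filter on low counts, which all told left 16874 genes. NTN5 carries a symbol of the same form in the RefSeq table but was not analysed here.

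The tissue is labelled hippocampus at 0.9 of gestation, from dams described as differing in adiposity and leptin. The labels name no maternal group, age, sex or treatment for any of the 8 libraries, AMB3 to AMB10, so no group was formed or compared and the values describe how the libraries differed. Nothing in the labels says whether each library comes from a different fetus, so the spread between libraries may include technical differences. The title of AMB3 ends in a suffix of another form than the other titles, which the labels do not explain. Its bearing on the AMB3 values was not tested. The libraries were bulk total RNA, and fewer cells of a type cannot be told apart from less RNA per cell.

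Ephrins are held on the cell surface, A-class ligands by a lipid anchor and B-class ligands by a transmembrane stretch. They bind Eph receptor tyrosine kinases on a neighbouring cell, and signals can run into both cells. In the hippocampus these contacts take part in the layering of afferents and in the shaping of dendritic spines. Netrins are laminin-like proteins that attract axons through DCC and repel them when UNC5 receptors take part. Slits are large secreted proteins that repel axons through ROBO receptors.

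Total counts per library lay between 40404878 and 71648654. The members took 0.295% (95% Wilson interval 0.293% to 0.296%) of the counts in AMB6 and 0.341% (0.339% to 0.342%) in AMB7, the lowest and the highest library. Levels are counts per 1000000 (CPM) after TMM scaling, which applies 1 factor per library and does not correct for differences in cell make-up. CPM is not divided by transcript length, so the level of 1 gene is not ranked against that of another. No library pair agreed within counting error. The forebrain glutamate transporter SLC17A7 was at 806 to 1365 CPM. None of the 3 choroid plexus markers listed passed the filter. TTR lay between 0 CPM (AMB5) and 2.47 (AMB4), and KCNJ13 between 0 (AMB5) and 2.26 (AMB7). CLIC6 lay between 0.06 CPM (AMB8) and 4.04 (AMB7). Failing the filter does not mean low counts throughout: CLIC6 had a median of 100 counts but 4 in AMB8. Genes left out by the filter are also missing from the shares given for all tested genes.

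Most of the guidance genes differed widely between libraries. The log2 range, the distance between a gene's highest and lowest library in log2 CPM, was at least 1 in 24 of the 36 tested members (66.7%). For some of them it fell below 1 when a single library was left out. Among all tested genes 36.1% had such a range. The median log2 range was 1.22 in the members and 0.77 in all tested genes. A log2 range of at least 2 was found in 3 members (8.33%) against 9.0% of all tested genes, a share near the background. These 3 were EFNA5, EPHA3 and EPHA7. All 4 UNC5 receptors, both netrin-G genes and DCC had a log2 range of at least 1, whereas EPHB6 was the only EphB receptor of 5 with one.

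**Figure D1:**
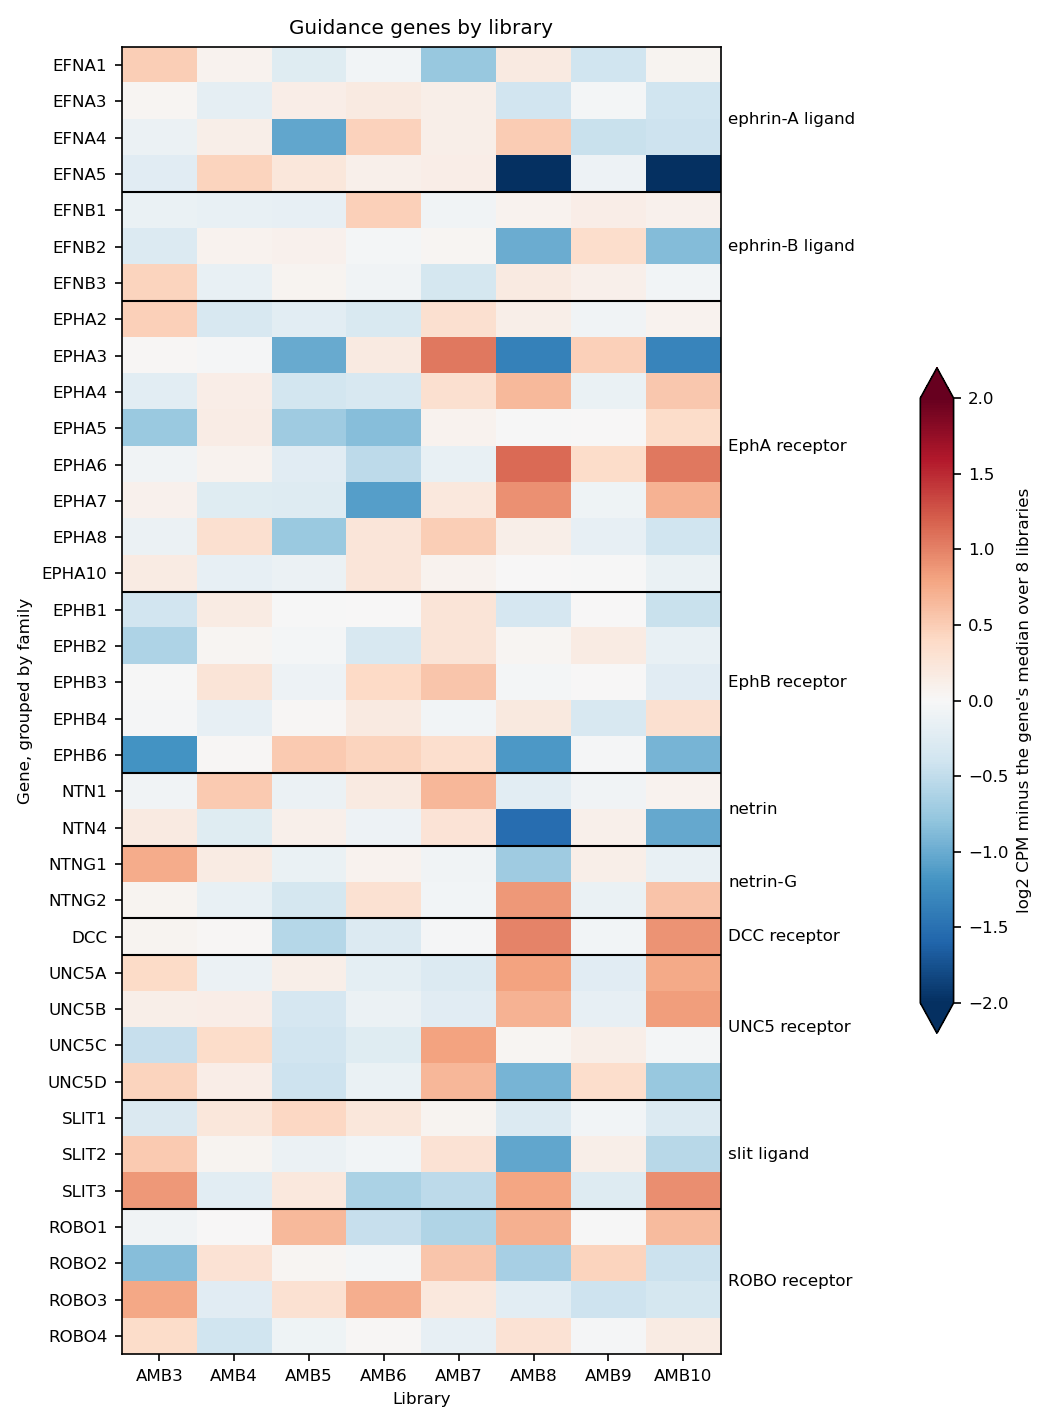
Level of each of the 36 tested members (rows, grouped by family) in each of the 8 libraries (columns), as log2 CPM minus the gene's median over the libraries, with the colour scale clipped at 2 on either side of 0. EFNA5 is lowest in AMB8 and AMB10, where DCC, EPHA6, EPHA7, UNC5A and UNC5B are highest.

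Among the A-class ligands EFNA5 had the largest log2 range of all members. EFNA5, a repellent ephrin of the topographic maps of the forebrain (chromosome 5, 100099268 to 100397914, minus strand, Panubis1.0), stood at 4.56 CPM in AMB8, 8.71 in AMB10, 31.2 in AMB3, 34.1 in AMB9, 39.2 in AMB6, 40.2 in AMB7, 42.6 in AMB5 and 49.6 in AMB4. AMB8 and AMB10 lay far below the other 6 libraries. The 95% Poisson interval, which covers counting error only, was 4.06 to 5.10 CPM in AMB8 and 47.9 to 51.4 CPM in AMB4. The log2 range was 3.43, or 10.8-fold, larger than that of 98.4% of all tested genes.

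EFNA3, which lies on chromosome 1 near EFNA1 and EFNA4, had a log2 range of 0.58, with 42.2 CPM in AMB10, a median of 55.9 and 63.1 in AMB6. EFNA1 was low, with 6.63 CPM in AMB3, 5.38 in AMB8, 4.98 in AMB4, 4.91 in AMB10, 4.56 in AMB6, 3.99 in AMB5, 3.60 in AMB9 and 2.80 in AMB7. Its log2 range of 1.23 fell to 0.93 without AMB3 and to 0.87 without AMB7. EFNA4 was near the filter, with a median of 38 counts, and stood at 0.882 CPM in AMB8, 0.850 in AMB6, 0.673 in AMB4 and in AMB7, 0.567 in AMB3, 0.461 in AMB10, 0.453 in AMB9 and 0.300 in AMB5. The Poisson intervals of its lowest (0.160 to 0.513 CPM) and highest library (0.672 to 1.14 CPM) were wide, and the log2 range of 1.45 fell to 0.91 without AMB5.

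EFNA5 therefore took different shares of the A-class ephrin counts. It made up 8.50% (95% Wilson interval 7.63% to 9.46%) of the summed counts of EFNA1, EFNA3, EFNA4 and EFNA5 in AMB8 and 15.5% (14.4% to 16.6%) in AMB10. In the other libraries its share was between 32.6% (31.1% to 34.0%) in AMB3 and 47.5% (46.3% to 48.7%) in AMB4.

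Of the B-class ligands only EFNB2 reached a log2 range of 1. EFNB2, the ephrin of arterial endothelium that neurons also make, was at 48.6 CPM in AMB8, 53.0 in AMB10, 80.1 in AMB3, 94.5 in AMB6, 99.3 in AMB7, 102 in AMB4, 103 in AMB5 and 124 in AMB9. As with EFNA5, AMB8 and AMB10 were the lowest, and the log2 range was 1.35. EFNB3, the ephrin of the midline that stops corticospinal axons in mouse, had a log2 range of 0.80 between 182 CPM in AMB7 and 316 in AMB3, or 0.53 without AMB3. EFNB1, on the X chromosome, was at 26.7 CPM in AMB6 and between 17.1 and 21.1 elsewhere. Without AMB6 its log2 range of 0.64 became 0.31, and of all tested genes 5.08% had a library set apart by as large a share of their range.

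EphA receptors did not follow 1 pattern. EPHA3, a receptor with high affinity for EFNA5, was at 57.5 CPM in AMB7, 38.7 in AMB9, 31.2 in AMB6, 28.2 in AMB3, 27.2 in AMB4, 13.8 in AMB5, 11.1 in AMB10 and 10.8 in AMB8. Its log2 range was 2.41 (5.30-fold), and 1.85 without AMB7. AMB8 and AMB10 were again the lowest, but AMB5, which held much EFNA5, stood just above them.

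EPHA7, a receptor that also has a form without a kinase domain, went the other way in those libraries. It was at 154 CPM in AMB8, 133 in AMB10, 94.9 in AMB7, 86.7 in AMB3, 76.8 in AMB9, 68.9 in AMB4, 68.2 in AMB5 and 38.0 in AMB6. The log2 range of 2.02 rested on AMB6 at the low end: it was 1.17 without AMB6 and 1.81 without AMB8. EPHA6 was at 57.8 CPM in AMB8, 54.5 in AMB10, 33.9 in AMB9, 27.7 in AMB4, 25.0 in AMB3, 23.6 in AMB7, 22.6 in AMB5 and 18.4 in AMB6, a log2 range of 1.65.

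EPHA4, which binds ephrins of both classes and restrains dendritic spines in mouse hippocampus, had the same highest libraries over a smaller range. It was at 551 CPM in AMB8, 514 in AMB10, 438 in AMB7, 387 in AMB4, 321 in AMB9, 303 in AMB3, 283 in AMB6 and 273 in AMB5. The log2 range of 1.01 fell to 0.91 without AMB8 and to 0.96 without AMB5.

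EPHA5, a receptor of hippocampal and cortical neurons, split the libraries another way. It was at 285 CPM in AMB10, 246 in AMB4, 232 in AMB7, 223 in AMB9 and 221 in AMB8, and at 135 in AMB5, 133 in AMB3 and 123 in AMB6. AMB8 and AMB10 here sat among 5 libraries above the other 3. EPHA5, EPHB6, EFNA5 and DCC each had a gap of more than 0.5 of the log2 range between 2 sets of libraries, as did 4.28% of all tested genes. Its log2 range was 1.22, and 0.996 without AMB10.

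EPHA8 was at 10.6 CPM in AMB7, 9.34 in AMB4, 8.86 in AMB6, 8.11 in AMB8, 6.95 in AMB3, 6.68 in AMB9, 5.68 in AMB10 and 4.50 in AMB5. The log2 range, 1.23, was 0.89 without AMB5. EPHA10, whose kinase domain is inactive, had the smallest log2 range of all tested members, 0.40, with levels between 26.4 and 34.9 CPM. EPHA2, best known from epithelia, ranged from 1.83 to 3.16 CPM (log2 range 0.77). EPHA1 did not pass the filter: it had 8 counts in AMB6, 4 in AMB3, 2 in AMB9 and none in the other libraries. It also overlaps ZYX on the opposite strand, which had a median of 2278 counts.

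EphB receptors varied less, except for EPHB6, a receptor with an inactive kinase domain. EPHB6 was at 155 CPM in AMB5, 148 in AMB6, 136 in AMB7, 109 in AMB4 and 107 in AMB9, and at 56.7 in AMB10, 48.6 in AMB8 and 47.3 in AMB3. AMB3, AMB8 and AMB10 lay below the other 5 libraries without overlap, and the log2 range was 1.71. These were the 3 lowest libraries in 6 of the 36 tested members and in 9.87% of all tested genes. EPHB6 took between 25.2% (95% Wilson interval 24.4% to 25.9%) of all EphB counts in AMB8 and 50.6% (49.7% to 51.4%) in AMB5.

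The active EphB kinases had log2 ranges between 0.63 and 0.88. EPHB2, which binds the NMDA receptor at excitatory synapses, had 38.1 CPM in AMB3 and 70.1 in AMB7 as its extremes. Without AMB3 its log2 range of 0.88 became 0.58. EPHB1 lay between 45.8 and 74.9 CPM and EPHB3 between 24.3 and 41.9 CPM, both lowest in AMB10 and highest in AMB7. EPHB4, the partner of EFNB2 on venous endothelium, lay between 5.16 CPM in AMB9 and 8.04 in AMB10. The summed level of 4 endothelial markers, none of which had a log2 range of 1, lay between 109 and 152 CPM.

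**Figure D2:**
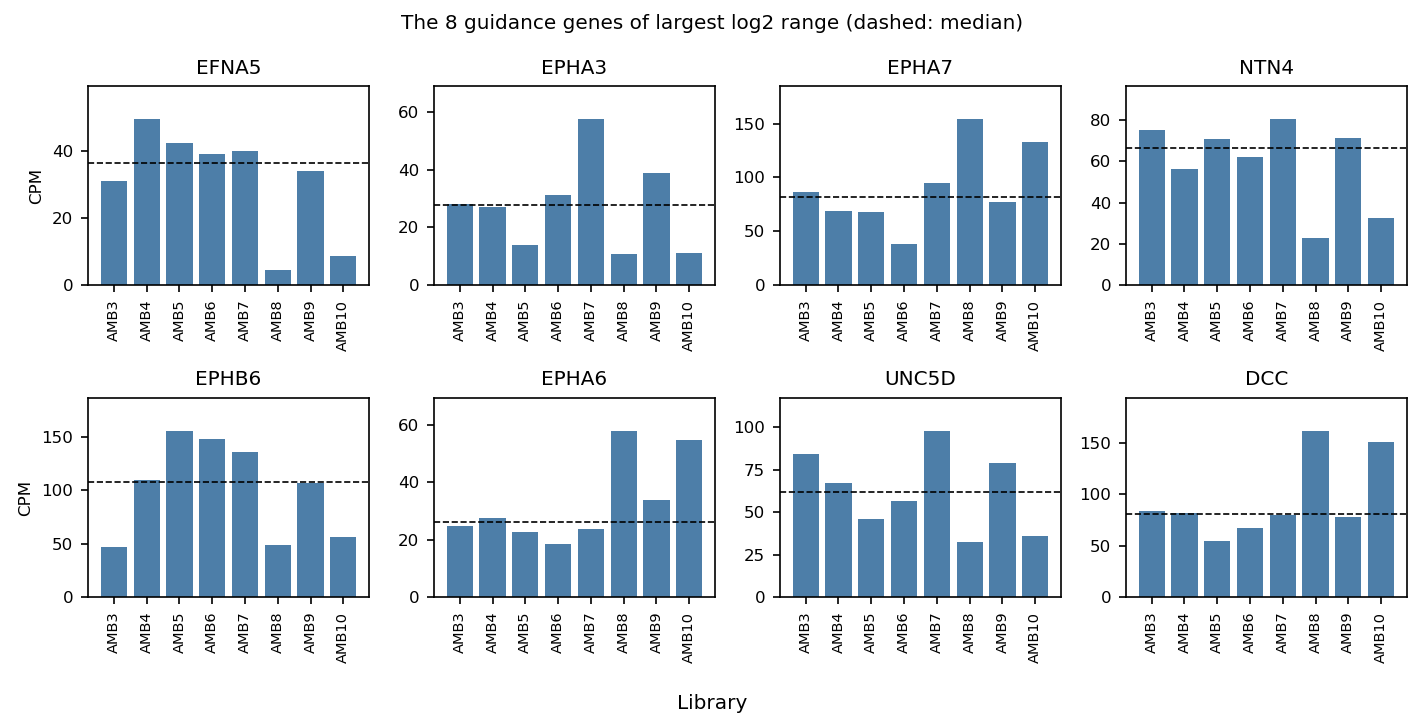
CPM (vertical axes, each from 0) of the 8 members of largest log2 range in each library, with the median over libraries as a dashed line. EFNA5, EPHA3, NTN4 and UNC5D are lowest in AMB8 and AMB10, and EPHA7, EPHA6 and DCC are highest there.

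Of the netrins, NTN4 varied and NTN1 varied less. NTN4, a netrin of basement membranes that binds laminin, was at 80.5 CPM in AMB7, 75.4 in AMB3, 71.4 in AMB9, 71.0 in AMB5, 62.1 in AMB6, 56.4 in AMB4, 32.7 in AMB10 and 23.1 in AMB8. AMB8 and AMB10 stood apart below the other libraries, with a log2 range of 1.80. NTN1, the founding netrin of commissural guidance, lay between 9.93 CPM in AMB8 and 18.2 in AMB7 (log2 range 0.87).

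Genes of meninges and fibroblasts, which also make basement membrane, varied too. The summed level of 4 such markers lay between 54.9 and 340 CPM. DCN, a matrix proteoglycan on that list, had its 2 lowest libraries in AMB8 (9.12 CPM) and AMB10 (26.1 CPM), while COL1A2 was lowest in AMB5, at 21.3 CPM. Their part in the NTN4 values was not tested. NTN3 did not pass the filter, with 6 to 37 counts.

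The attractive netrin receptor DCC (chromosome 19, 44423690 to 45650256, plus strand, Panubis1.0) was highest where NTN4 was lowest. DCC stood at 161 CPM in AMB8, 151 in AMB10, 84.2 in AMB3, 82.2 in AMB4, 79.6 in AMB7, 77.8 in AMB9, 67.0 in AMB6 and 54.7 in AMB5. The Poisson interval was 158 to 164 CPM in AMB8 and 52.5 to 57.0 in AMB5, and the log2 range was 1.56.

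The 4 UNC5 receptors, which turn the response to netrin into repulsion, fell into different orders. UNC5A was at 193 CPM in AMB8, 187 in AMB10, 144 in AMB3, 120.3 in AMB5, 101 in AMB4, 96.7 in AMB6, 94.5 in AMB9 and 91.7 in AMB7 (log2 range 1.07). UNC5B was at 40.4 CPM in AMB10, 36.5 in AMB8, 24.8 in AMB4, 24.3 in AMB3, 20.9 in AMB6, 20.1 in AMB9, 19.3 in AMB7 and 17.8 in AMB5 (log2 range 1.18). For both of these, AMB8 and AMB10 were the highest libraries.

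UNC5D, which in mouse binds the adhesion protein FLRT2 on migrating cortical neurons, was lowest in the same libraries. It was at 97.5 CPM in AMB7, 84.1 in AMB3, 78.8 in AMB9, 67.2 in AMB4, 56.3 in AMB6, 46.1 in AMB5, 36.2 in AMB10 and 32.5 in AMB8, a log2 range of 1.59. UNC5C was highest in AMB7, with 98.4 CPM there, 73.1 in AMB4, 61.1 in AMB9, 58.3 in AMB8, 54.7 in AMB10, 47.9 in AMB6, 43.2 in AMB5 and 40.9 in AMB3. Its log2 range of 1.27 fell to 0.84 without AMB7.

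The mix of UNC5 counts therefore shifted. UNC5A took 60.2% (95% Wilson interval 59.6% to 60.9%) of UNC5 counts in AMB8 and 29.9% (29.3% to 30.5%) in AMB7. UNC5D took 10.1% (9.74% to 10.6%) in AMB8 and 31.8% (31.2% to 32.4%) in AMB7.

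Netrin-G proteins are lipid-anchored relatives of the netrins. They bind neither DCC nor UNC5 and act in synapse formation through LRRC4C, the partner of NTNG1, and LRRC4, the partner of NTNG2. NTNG2 was at 187 CPM in AMB8, 153 in AMB10, 128 in AMB6, 107 in AMB3, 98.9 in AMB7, 93.8 in AMB9, 93.4 in AMB4 and 81.2 in AMB5. NTNG1 was at 57.2 CPM in AMB3, 38.0 in AMB4, 36.9 in AMB9, 35.7 in AMB6, 32.6 in AMB7, 30.9 in AMB5, 30.8 in AMB10 and 20.8 in AMB8. AMB8 was the highest library for NTNG2 and the lowest for NTNG1.

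The log2 range of NTNG2, 1.21, fell to 0.91 without AMB8. That of NTNG1, 1.46, fell to 0.87 without AMB3 and to 0.89 without AMB8. NTNG1 made up 9.97% (95% Wilson interval 9.49% to 10.5%) of the netrin-G counts in AMB8 and 34.8% (33.6% to 35.9%) in AMB3. Their partners did not split in this way: LRRC4C had 71.7 CPM in AMB8 and 76.2 in AMB10 and LRRC4 had 76.3 and 75.9 CPM, each below the other 6 libraries.

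**Figure D3:**
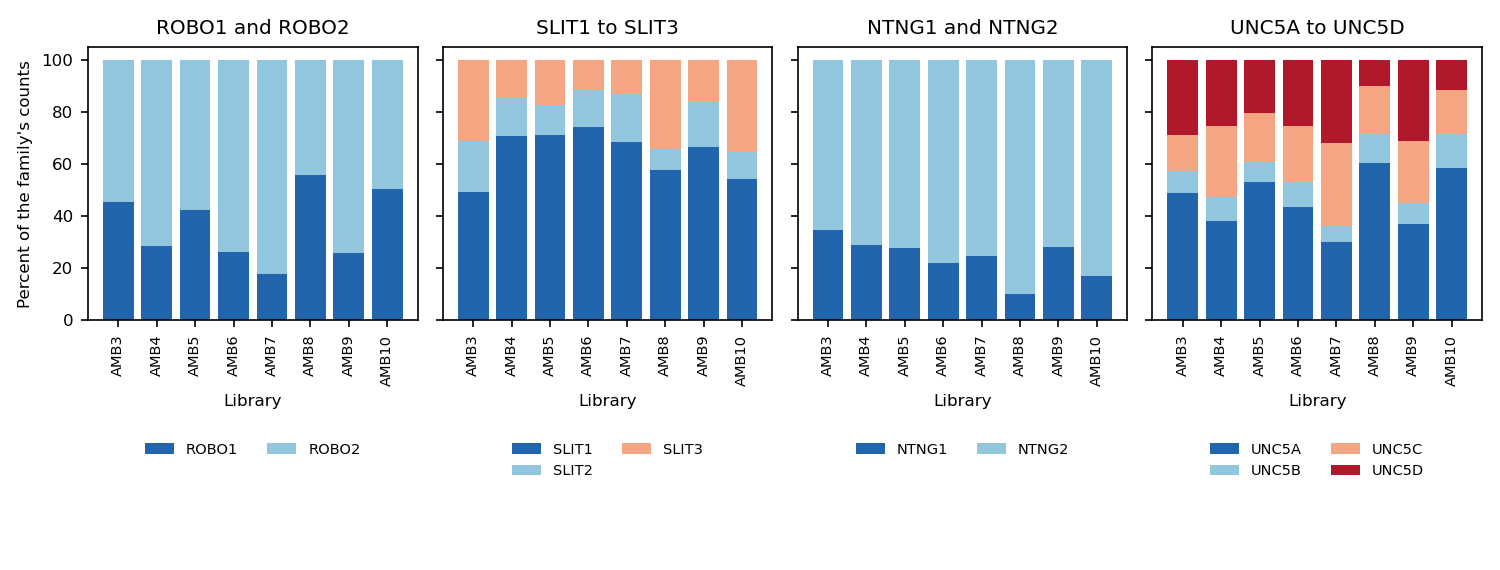
Percent of the summed counts of each receptor or ligand family (vertical axis) taken by each gene, by library, for ROBO1 and ROBO2, the 3 slits, the 2 netrin-G genes and the 4 UNC5 receptors. Counts are not divided by transcript length. ROBO1 takes 55.8% of its pair in AMB8 and 17.8% in AMB7, and SLIT3 takes 35.3% of slit counts in AMB10 and 11.6% in AMB6.

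Slits differed among themselves. SLIT1, a slit made mainly in the nervous system, had a log2 range of 0.69, from 391 CPM in AMB3 to 633 in AMB5. SLIT2, a repellent that neurons and midline cells make, was at 157 CPM in AMB3, 134 in AMB7, 119 in AMB9, 114 in AMB4, 106 in AMB6, 101 in AMB5, 75.0 in AMB10 and 53.5 in AMB8. SLIT3 was at 256 CPM in AMB10, 247 in AMB3, 233 in AMB8, 155 in AMB5, 117 in AMB4, 112 in AMB9, 93.3 in AMB7 and 87.2 in AMB6. SLIT2 and SLIT3 each had a log2 range of 1.55. AMB3 was high for both, whereas AMB8 and AMB10 were the lowest for SLIT2 and among the 3 highest for SLIT3. Of all tested genes 9.71% had AMB3, AMB8 and AMB10 as their 3 highest libraries.

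SLIT3 took 35.3% (95% Wilson interval 34.9% to 35.7%) of slit counts in AMB10, 34.3% (33.9% to 34.7%) in AMB8 and 31.0% (30.5% to 31.5%) in AMB3. In the other libraries it took between 11.6% (11.3% to 11.9%) in AMB6 and 17.5% (17.1% to 17.8%) in AMB5.

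The main neuronal slit receptors, ROBO1 and ROBO2, moved in opposite directions in several libraries. ROBO1 was at 176 CPM in AMB8, 167 in AMB5, 167 in AMB10, 108 in AMB4, 106 in AMB9, 102 in AMB3, 77.5 in AMB6 and 70.6 in AMB7. ROBO2 was at 325 CPM in AMB7, 302 in AMB9, 272 in AMB4, 227 in AMB5, 216 in AMB6, 164 in AMB10, 139 in AMB8 and 123 in AMB3. AMB7 was the lowest library for ROBO1 and the highest for ROBO2. The log2 ranges were 1.31 and 1.40.

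ROBO1 made up 55.8% (95% Wilson interval 55.1% to 56.5%) of the pair's counts in AMB8, 50.4% (49.8% to 51.0%) in AMB10, 45.4% (44.4% to 46.4%) in AMB3 and 42.5% (41.7% to 43.2%) in AMB5. It made up 17.8% (17.4% to 18.3%) in AMB7 and between 26.0% and 28.4% in AMB9, AMB6 and AMB4. Both genes lie on chromosome 2, on opposite strands and with 1025 kb between them.

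ROBO3, a receptor of axons before they cross the midline, was at 7.42 CPM in AMB3, 7.24 in AMB6, 5.39 in AMB5, 5.03 in AMB7, 3.78 in AMB8, 3.74 in AMB4, 3.41 in AMB10 and 3.28 in AMB9, a log2 range of 1.17. ROBO4, the ROBO of endothelium, lies 2.85 kb from it on chromosome 12 and had a log2 range of 0.77, from 8.21 CPM in AMB4 to 14.0 in AMB3. Both were highest in AMB3, but AMB8 was the next highest library for ROBO4 and AMB6 for ROBO3.

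AMB8 and AMB10 were the 2 highest libraries in 8 of the 36 tested members and the 2 lowest in another 8. Of all tested genes 11.9% had this pair highest and 11.6% had it lowest. Together these are 44.4% of the members and 23.6% of all tested genes. The pair was picked as the most frequent among the members, which by itself favours a member share above that of all genes. It was also the most frequent pair among all tested genes, both for the highest and for the lowest libraries. No ligand of 12 had the pair highest, and 5 had it lowest (EFNA3, EFNA5, EFNB2, NTN4, SLIT2). Of 22 receptors, 7 had it highest (DCC, EPHA4, EPHA6, EPHA7, EPHB4, UNC5A, UNC5B) and 2 had it lowest (EPHA3, UNC5D). NTNG2 was in the first set and NTNG1 in the other. The sets were formed by rank alone, without regard to counting error, and some ranks were close. NTNG1 was at 30.8 CPM in AMB10 and 30.9 in AMB5, and EPHB4 at 7.42 in AMB8 and 7.33 in AMB6. Close ranks also kept out ROBO1 (166.5 CPM in AMB10, 167.5 in AMB5) and SLIT1 (393.2 CPM in AMB10, 391.2 in AMB3). The ligand and receptor counts were not compared by a test. AMB7 was the highest library in 10 of the 36 members (27.8%), against 15.5% of all tested genes. It is named because it was most often highest among the members, a choice that also favours a larger member share.

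Markers of hippocampal and cortical neurons differed in the same libraries. PROX1, which specifies the granule cells of the dentate gyrus, reached 96.7 CPM in AMB8 and 81.9 in AMB10. It reached 49.1 CPM in AMB3 and 14.4 to 33.6 in the remaining libraries. C1QL2, a synaptic protein of the same cells, was likewise highest in AMB10 (35.7 CPM) and AMB8 (34.2 CPM), but DSP, the last of the 3 granule cell markers listed, was highest in AMB7 (6.01 CPM). Their summed level lay between 23.5 and 134 CPM. Of 3 markers of the CA fields, FIBCD1, a marker of CA1 in mouse, reached 400.1 CPM in AMB8 and 367 in AMB10 and lay between 9.01 and 84.1 elsewhere. GRIK4, a kainate receptor subunit of CA3, was also highest there (61.3 and 59.9 CPM), but WFS1 was highest in AMB3. Their summed level lay between 100.4 and 526 CPM.

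Of 3 excitatory neuron markers, TBR1, a transcription factor of deep cortical layers, had 16.2 CPM in AMB8, 16.0 in AMB10 and 36.0 to 59.7 in the remaining libraries. NEUROD2 was highest in AMB8 and AMB10 (134 and 122 CPM), and SLC17A7 was highest in AMB5. The summed level of the 3 lay between 955 and 1516 CPM, and no granule cell, CA field or excitatory neuron marker was at 0 in any library. All 3 interneuron markers, SST, GAD1 and GAD2, were lowest in AMB8 (59.1, 129 and 70.1 CPM). SST and GAD1 were next lowest in AMB10, where GAD2 was instead at its second highest level (104.8 CPM), and the summed level of the list lay between 258 and 612 CPM. RARB, a retinoic acid receptor on the list of 3 striatal markers, lay between 1.94 CPM in AMB8 and 80.5 in AMB7, whereas DRD1 and PPP1R1B on that list had no log2 range of 1.

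Markers of glia and vessel walls varied as well. All 5 oligodendrocyte markers reached a log2 range of 2 and were highest in AMB10, then AMB4, then AMB8. MOBP, a myelin protein, reached 596 CPM in AMB10, 472 in AMB4 and 288 in AMB8 and was lowest in AMB3 (51.8 CPM), and the summed level of the list lay between 656 and 4312 CPM. All 3 astrocyte markers were highest in AMB10, and their summed level lay between 2071 and 4752 CPM. All 3 microglial markers were lowest in AMB8, with a summed level between 49.7 and 114 CPM. The 3 smooth muscle markers were highest in AMB4, with a summed level between 19.9 and 268 CPM. The part of all these cell populations in the guidance gene values was not tested.

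**Figure D4:**
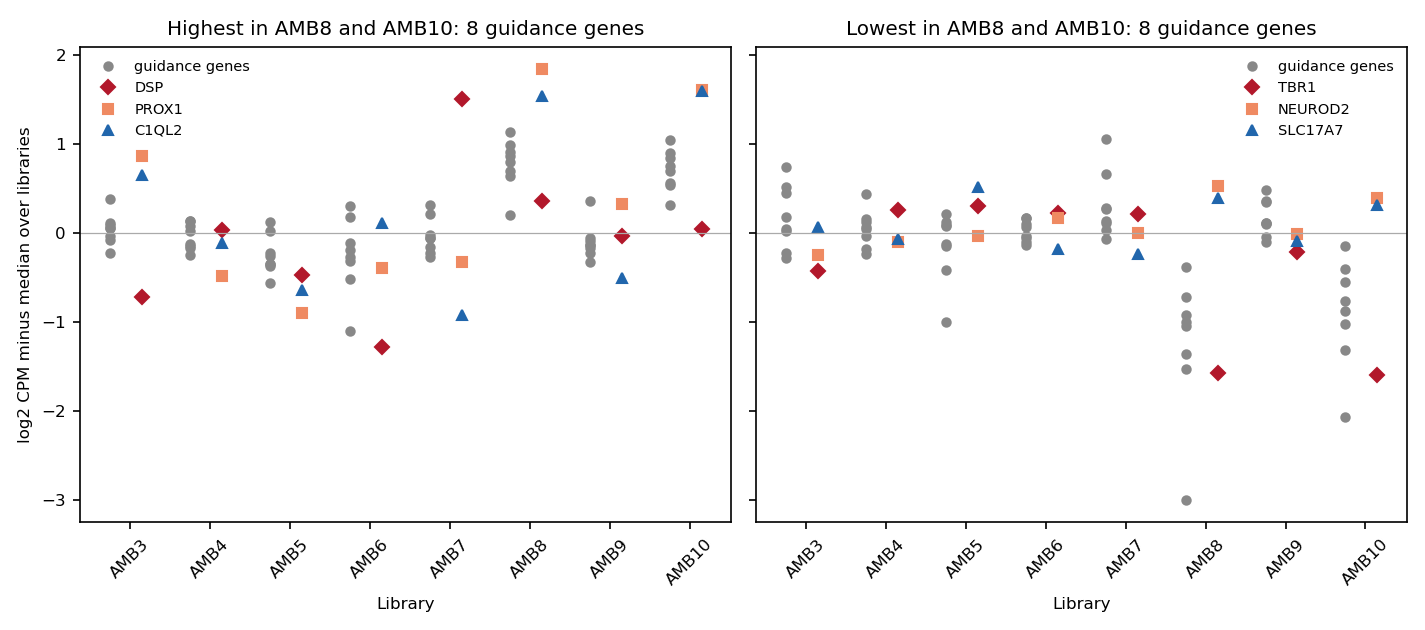
log2 CPM minus the median over libraries (vertical axis) by library for the 8 members highest in AMB8 and AMB10 with 3 granule cell markers (left) and the 8 members lowest there with 3 excitatory neuron markers (right). The grey members were chosen by that pattern. PROX1 and C1QL2 are high and TBR1 is low in the same libraries, while DSP is highest in AMB7 and NEUROD2 and SLC17A7 are not low in AMB8 and AMB10.

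Lists of other genes of ephrin, netrin and slit signalling held intracellular mediators as well as secreted and surface proteins. Among 56 tested genes on these lists, 11 reached a log2 range of 1, against 36.1% of all tested genes, and none reached 2, against 9.0%. Their median log2 range was 0.62, against 0.77 in all tested genes. The ephrin list had 3 of 20, the netrin list 4 of 22 and the slit list 4 of 14 with a range of at least 1. The kinase FYN, which acts below several of these receptors, lay between 201 and 258 CPM. The sheddase ADAM10, which cleaves ephrins, lay between 71.5 and 91.9 CPM, and NEO1, a receptor related to DCC, between 157 and 208 CPM.

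The 3 genes of largest range on the ephrin list were NGEF, INPPL1 and TIAM1. NGEF, the exchange factor ephexin that EPHA4 activates, was at 254 CPM in AMB5, 213 in AMB7, 212 in AMB6, 197 in AMB4, 173 in AMB9, 144 in AMB3, 93.4 in AMB10 and 88.0 in AMB8 (log2 range 1.53). It was lowest where EPHA4 was highest. The log2 range of INPPL1, a lipid phosphatase, was 1.19, and 0.88 without AMB10. That of TIAM1, an exchange factor for RAC, was 1.05, and fell to 0.94 without AMB7 and to 0.73 without AMB8.

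On the netrin list DRAXIN, a secreted protein that binds netrin and DCC, lay between 15.9 CPM in AMB10 and 43.1 in AMB9 (log2 range 1.44). AMB8 was next lowest, with 18.9 CPM. LRRC4C had a log2 range of 1.28, and 0.95 without AMB5. FLRT3, which binds UNC5 receptors and ROBO1, ranged from 31.6 CPM in AMB5 to 71.8 in AMB8 (log2 range 1.18).

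On the slit list NELL1, a secreted protein whose relative NELL2 binds ROBO3, had 134 CPM in AMB8, 133 in AMB10, 116 in AMB3 and 59.7 to 79.2 in the remaining libraries. Its log2 range of 1.17 fell to 0.92 without AMB5. PLXNA1, a plexin that binds a fragment of slit, ranged from 177 CPM in AMB3 to 391 in AMB5 (log2 range 1.14, falling to 0.78 without AMB3 and to 0.90 without AMB5). EVL, an actin regulator of the growth cone, ranged from 202 CPM in AMB10 to 433 in AMB5 (log2 range 1.10, and 0.95 without AMB10).

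**Figure D5:**
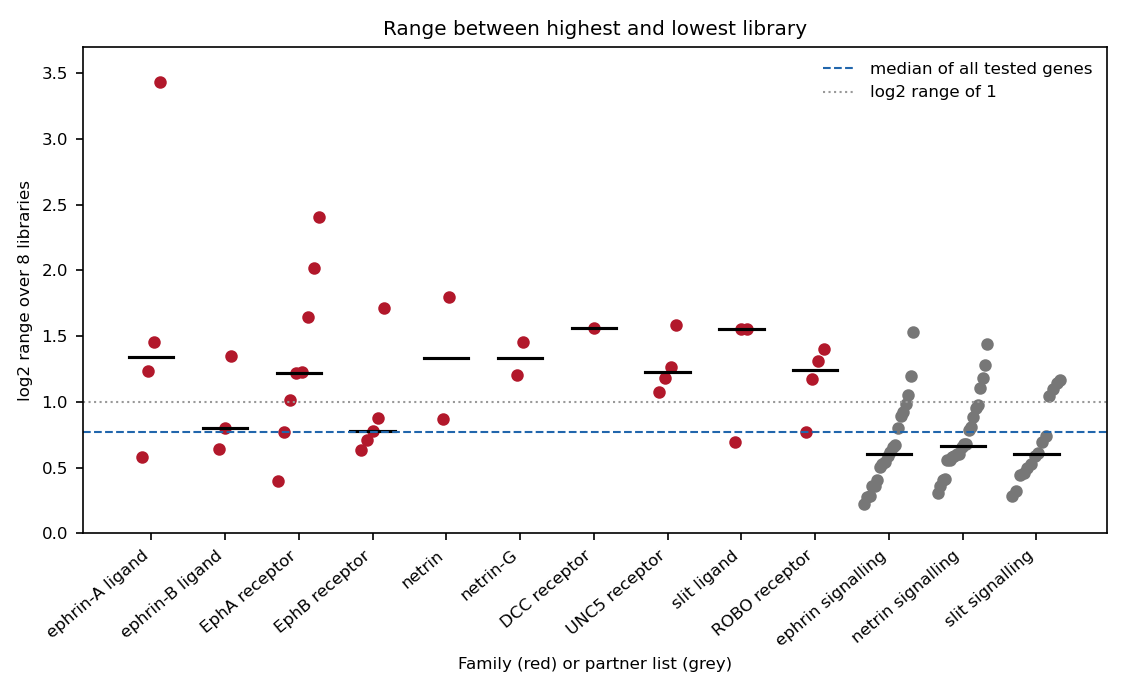
log2 range over the 8 libraries (vertical axis) of each tested member by family (red) and of each gene on the signalling lists (grey), with the family median as a black bar. The dashed line is the median of all tested genes, 0.77, and the dotted line a range of 1; most EphB receptors lie close to the dashed line.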

How the data were processed

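Total RNA (25 ng per library) was made into strand-specific libraries, per the labels' protocols. The authors deposited estimated counts per RefSeq gene (columns named raw, per the file headers) and normalized values on a log2 scale. The submitters' processing notes name DESeq with no version. Aligner, counter and genome build were not given in the sources used here. Positions of all 38 members equalled those of the RefSeq table of Panubis1.0, which supplies the build named. Whether counting used strand is not stated, and 15 members overlap a gene on the opposite strand. For the tested members these opposite-strand genes had a median of 12 counts at most (HK3, which overlaps UNC5A). Reads shared between similar genes could not be examined.

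Estimated counts were rounded. Genes were kept by filterByExpr in edgeR 4.0.16 (R 4.3.3; minimum count 10, no groups). CPM used library sizes summed over these genes and TMM scaling (trimmed mean of M-values). log2 CPM used a prior count of 2. With no group in the labels, no test between groups was run; Dixon's criterion was used to find a library set apart, and a chi-square per gene to compare library pairs with counting error. The range procedure was tested on simulated data. Intervals cover counting error only. Members and lists were chosen with earlier results of these data known. Members with a log2 range of at least 1 are given in every library, other members by their extremes, and the 3 genes of largest range are named on each signalling list. Other list genes named (FYN, ADAM10, NEO1, LRRC4) were chosen after their values were seen. Alternatives were other scalings, another prior count, no filter, unrounded counts, the deposited log2 values and each library left out. A further excitatory neuron marker, beside the 3 described, is not reported here. No sequence was used here.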

Additional observations from a re-analysis of the deposited data

Results flagged for a closer look

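EFNB1 in AMB6 stood apart from the other libraries. Its level there was 26.7 CPM, and the gap to the nearest library was 0.53 of the whole log2 range, just above Dixon's 95% critical value for 8 libraries. This was 1 of 36 tested members, and 5.08% of all tested genes had such a library; chance marks about 1 group of values in 20.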

How the results depend on the processing

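Without the filter on low counts, the number of members with a log2 range of at least 2 was 5 in place of 3, because EPHA1 and NTN3 enter with few counts. With each library left out in turn, the number of members with a log2 range of at least 1 (24) lay between 21 and 24, the number with at least 2 (3) between 2 and 3, and the median log2 range (1.22) between 1.12 and 1.22. These totals do not show that different members dropped out in different runs. EFNA1, EFNA4, EPHA4, EPHA5, EPHA8, NTNG1, NTNG2 and UNC5C each fell below a range of 1 in at least 1 run. The number of signalling genes with a log2 range of at least 1 (11) lay between 8 and 11. The number with AMB8 and AMB10 highest (8) lay between 7 and 10 and the number with them lowest (8) between 7 and 12. These 2 counts cover only the 6 runs that kept both AMB8 and AMB10. Under the other scalings, a prior count of 0.5, unrounded counts (added after the data were seen) and the deposited log2 values, these counts stayed within 1.5 times of the values reported, and no member's range moved by more than its SD over libraries. Leaving out 1 library moved the range by more than that for EFNA4, EFNB1, EFNB3, EPHA7, EPHB2, NTNG1 and UNC5C. No paired analysis was possible because the labels give no groups. Depth limits EFNA4, EPHA1 and NTN3.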

Other observations

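In 4 of the 36 tested members (11.1%) the libraries fell into separate sets, with a gap of more than 0.5 of the log2 range and at least 2 libraries on each side. Among all tested genes 4.28% did so. EFNA5 had 4.56 CPM in AMB8 and 8.71 in AMB10, and 31.2 in AMB3, 34.1 in AMB9, 39.2 in AMB6, 40.2 in AMB7, 42.6 in AMB5 and 49.6 in AMB4. DCC had 161 CPM in AMB8 and 151 in AMB10, and 84.2 in AMB3, 82.2 in AMB4, 79.6 in AMB7, 77.8 in AMB9, 67.0 in AMB6 and 54.7 in AMB5. EPHB6 was at 47.3 CPM in AMB3, 48.6 in AMB8 and 56.7 in AMB10, and at 107 in AMB9, 109 in AMB4, 136 in AMB7, 148 in AMB6 and 155 in AMB5. EPHA5 was at 123 CPM in AMB6, 133 in AMB3 and 135 in AMB5, and at 221 in AMB8, 223 in AMB9, 232 in AMB7, 246 in AMB4 and 285 in AMB10. The sets differed: AMB8 and AMB10 stood alone in EFNA5 and DCC, were joined by AMB3 in EPHB6, and lay with AMB4, AMB7 and AMB9 in EPHA5.

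Over the tested members the median difference in log2 CPM between AMB8 and AMB10 was 0.14, the smallest of the 28 library pairs, and between AMB8 and AMB9 it was 0.75, the largest. Across all tested genes AMB8 and AMB10 differed beyond counting error, with a mean chi-square of 50.8 per gene, where counting error alone gives about 1. They were not the closest pair by this measure: AMB4 and AMB9 had the smallest value, 42.6.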
